A study of Mus musculus with 13 samples.

Results

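The genes of the proteasome were followed in 13 mammary RNA libraries from MMTV-HER2/neu mice, 2 from cancer-free glands and 11 from tumors. Members were all rows of the count table whose symbol begins with Psma, Psmb, Psmc, Psmd, Psme, Psmf or Psmg followed by a digit, leaving out Psmb8, Psmb9 and Psmb10, which gave 47 of 24421 gene symbols. They comprised 7 alpha and 7 beta subunits of the 20S core particle, 6 ATPase and 11 non-ATPase subunits of the 19S regulatory particle, 7 assembly factors, and 6 genes of other activators and an inhibitor. Psma8 and Psmb11 are tissue-restricted subunits, and Psmc3ip, which the symbol rule takes in, encodes a partner of meiotic recombinases and no proteasome subunit. The 31 genes of the 20S and 19S particles are called core subunits here. The members lay on 16 chromosomes, and all 47 had a position in the GENCODE M21 annotation of GRCm38.

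The proteasome degrades proteins that carry ubiquitin chains. The 20S particle is a barrel whose beta subunits Psmb5, Psmb6 and Psmb7 hold the chymotrypsin-like, caspase-like and trypsin-like sites, and the 19S particle binds ubiquitin chains, unfolds the substrate with a ring of ATPases and feeds it into the barrel. When proteasome activity falls, the transcription factor NFE2L1, processed by NGLY1 and the protease DDI2, is known to raise the subunit genes together, and HSP90 inhibitors are known to send client proteins, HER2 among them, to the proteasome.

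All animals were female 202Mul/J mice of the FVB/N-TgN (MMTV-HER2/neu) strain, in which the mouse mammary tumor virus promoter drives a rat HER2/Neu cDNA in the mammary epithelium. The glands carry this transgene too, the labels give the genotype as wild type beside the strain name, and no ages were used here. The glands came from untreated mice. Primary untreated tumors (n = 3) arose without drug, and primary STV tumors (n = 3) arose in mice that drank stavudine (STV), a nucleoside inhibitor of reverse transcriptase, at 1 mg/mL, estimated as 200 mg/kg per day. Recurrent DMAG tumors (n = 3) came back in mice whose first tumors had disappeared under 17-DMAG, an HSP90 inhibitor injected at 20 mg/kg 3 times per week, and recurrent DMAG+STV tumors (n = 2) had regrown under 17-DMAG and stavudine. Stavudine began at 2 months of age or once a tumor had appeared. Primary STV tumors developed under the drug, so the later start could apply only to recurrent DMAG+STV mice. Which start each of these mice had was not given in the sources used here. By the study's methods the 17-DMAG injections went on during regrowth, so recurrence and exposure to 17-DMAG cannot be told apart. Each tumor library is a separate tumor, and p-values measure the spread between these libraries.

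Levels are given as CPM, a gene's counts relative to the size of its library, after TMM scaling, which centers the bulk of genes. Library totals ran from 39921388 to 56887708 counts, and a floor of 3 counts equaled 0.0587 to 0.107 CPM. Gland 2 stood apart with a TMM factor of 0.493, against 0.999 to 1.12 in the other libraries. Its 6 milk protein genes summed to 577913 CPM on the TMM scale, against 22019 in gland 1. With so low a factor, this sum is larger than the share of counts that these genes took in gland 2. Recurrent DMAG replicate 1 was the highest of the 11 tumors for 24.6% and the lowest for 24.7% of 16870 tested genes. Adipocyte markers summed to 849 and 668 CPM in the glands and 5.31 to 102 CPM in the tumors, and 5 luminal epithelial markers to 1585 and 1350 CPM in the glands and 1242 to 2661 CPM in the tumors. Proliferation markers summed to 343 and 151 CPM in recurrent DMAG+STV replicates 1 and 2, against 478 to 796 CPM in the other tumors. Replicate 2 of that group also had the lowest luminal sum and the highest skeletal muscle sum of the tumors, 1242 and 1325 CPM. In bulk tissue, fewer cells of a type and less RNA per cell cannot be told apart.

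The proteasome genes took a small and even share of the tumor transcriptome. Their counts made up 0.250% to 0.331% of a tumor library, with a median of 0.286%. The share was 0.272% in gland 1 and 0.160% in gland 2 (95% Wilson interval 0.159 to 0.161), and such intervals and floors cover counting error only. With milk, muscle and adipocyte genes taken out of the totals, the glands stood at 0.279% and 0.224% and the tumors at 0.254% to 0.338%. On the TMM scale the 31 core subunits summed to 1870 and 2474 CPM in glands 1 and 2 and to 1986 to 2496 CPM in the tumors. The glands thus bracketed every tumor except the highest, recurrent DMAG replicate 1, and without that library the highest tumor was at 2309 CPM.

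The catalytic subunits had close levels in the tumor groups, with Psmb6 and Psmb7 lowest in both recurrent DMAG+STV tumors by small margins. Psmb5 (ENSMUSG00000022193.7, chr14:54614119-54618022, minus strand) stood at 12.2, 14.1 and 11.3 CPM in primary untreated, 14.1, 10.9 and 12.8 CPM in primary STV, 14.3, 10.5 and 13.2 CPM in recurrent DMAG, and 12.7 and 14.3 CPM in recurrent DMAG+STV tumors. The glands were at 11.5 and 20.7 CPM, and the ranges of all 4 tumor groups overlapped. Psmb6 (ENSMUSG00000018286.6, chr11:70525367-70527858, plus strand) stood at 58.3, 58.9 and 63.2 CPM in primary untreated, 66.4, 60.2 and 62.9 CPM in primary STV, 58.4, 61.8 and 61.6 CPM in recurrent DMAG, and 56.7 and 54.1 CPM in recurrent DMAG+STV tumors, with 47.2 and 66.9 CPM in the glands. Both recurrent DMAG+STV tumors lay below the other 9, within a tumor range of only 54.1 to 66.4 CPM. Psmb7 (ENSMUSG00000026750.6, chr2:38588036-38644087, minus strand) stood at 71.9, 75.1 and 84.9 CPM in primary untreated, 83.9, 79.96 and 76.8 CPM in primary STV, 105, 68.7 and 78.3 CPM in recurrent DMAG, and 65.7 and 68.5 CPM in recurrent DMAG+STV tumors, with 65.8 and 87.9 CPM in the glands. Recurrent DMAG replicate 1 held the single high Psmb7 value. Both recurrent DMAG+STV tumors again lay below the other 9, the closest values being 68.5 and 68.7 CPM. The share of all genes split in this way was not counted. For single pairs of groups, recurrent DMAG+STV tumors did not overlap primary STV tumors for 35.3% of all genes, and recurrent DMAG tumors for 21.5%. Both recurrent DMAG+STV tumors also had the lowest proliferation marker sums, 343 and 151 CPM. The part of composition in their Psmb6 and Psmb7 values was not tested. Exons of Nek6 on the opposite strand overlap 34.9% of the principal Psmb7 transcript, and the strand setting of the counting was not given in the sources used here.

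**Figure D1:**
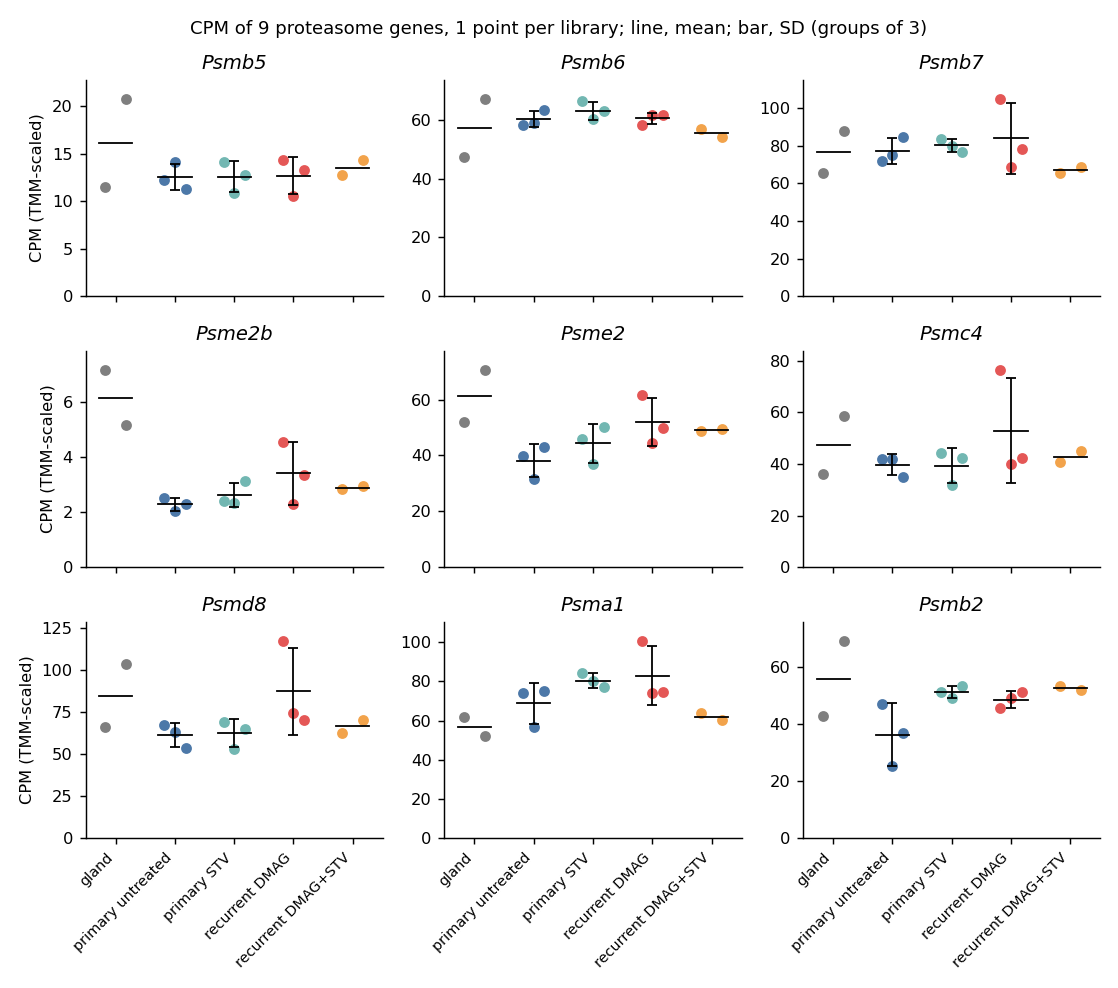
CPM (y axes, TMM-scaled, each from 0) of 9 proteasome genes in 13 libraries grouped by tissue and treatment (x axes); points are libraries, horizontal lines group means and vertical bars the SD of groups of 3. Psmb6 lies between 54.1 and 66.4 CPM in all tumors, Psme2b is lower in the 11 tumors than in both glands, and the highest tumor points of Psmc4 and Psmd8 belong to recurrent DMAG replicate 1.

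Per kilobase of exon (union of a gene's transcripts), the core subunits spanned a 5.17-fold range of tumor means. The lowest was the ATPase Psmc2 at 12.0 ± 0.795 CPM per kb (SD, n = 11) and the highest the alpha subunit Psma6 at 62.03 ± 3.77 CPM per kb, with a median of 22.8 over the 31 genes. The median level was 30.3 CPM per kb for the alpha subunits, 22.8 for the beta subunits, 29.5 for the ATPases and 19.3 for the non-ATPase subunits. Activators and the inhibitor had a median of 25.2 CPM per kb and the assembly factors, chaperones that build the particle and leave it, a median of 8.57. Ordered by level, 29 of 30 neighboring core pairs differed by less than the sum of their SDs, the exception being Psmd2, a scaffold subunit of the 19S base, and Psma6. The order depended on the length used: per kilobase of the principal transcript the lowest core level was 14.2 for Psmb5 and the highest 109 for Psma7, and the rank correlation of both orders was 0.719. The tissue-restricted Psma8, known from testis, and Psmb11, known from the thymic cortex, had 0 to 13 and 0 to 8 counts per library and did not pass the filter on low counts, which left 45 members for the tests.

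**Figure D2:**
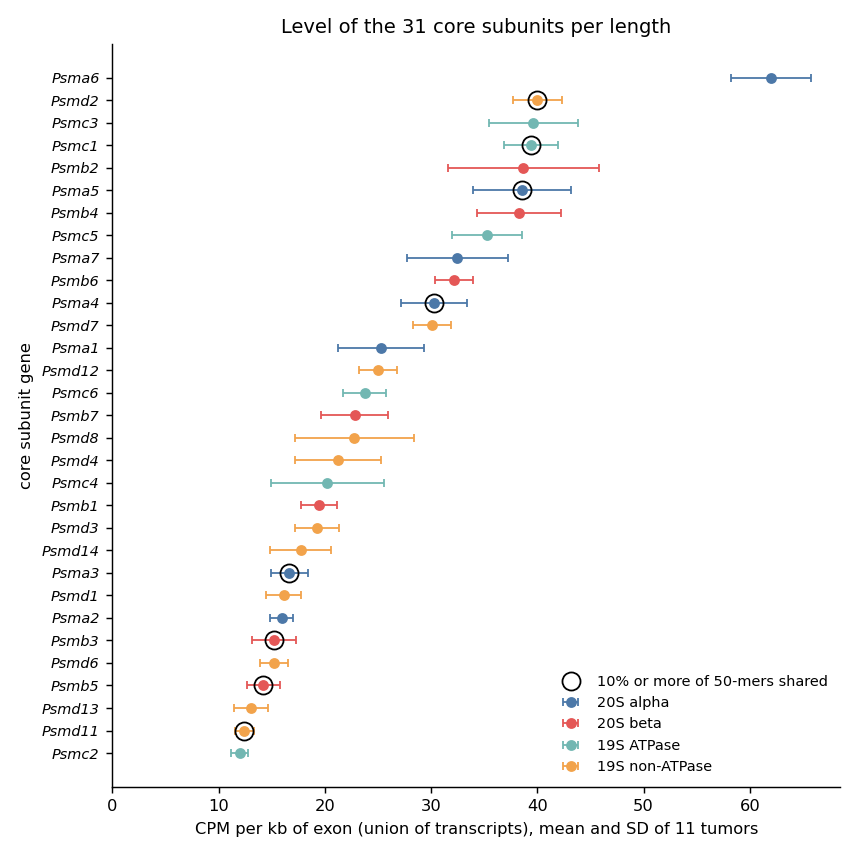
Level of the 31 core subunits in CPM per kilobase of exon (x axis, linear), 1 gene per line; points are means and bars SDs of 11 tumors, colors give the class and rings mark genes with at least 10% of their 50-base words in other genes. Psma6 at 62.03 stands apart, and Psmc2 at 12.0 is lowest.

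Part of these counts could not be placed with certainty, because many subunit genes have processed copies elsewhere. Of the members, 27 shared no 50-base word of their principal transcript with another gene, while 11 shared at least 10% of them. The share was 69.3% for Psme2b, 59.3% for Psme2, 55.8% for Psmb3, 54.5% for Psma5 and 50.0% for Psmb5. How reads with several matches were counted was not given in the sources used here, so the values of these 5 genes are uncertain.

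Across the 11 tumors the proteasome genes varied less than most genes. The SD of log2 CPM had a median of 0.154 over 45 members and 0.366 over 16870 tested genes, and all 45 members lay under the latter. Psmb6 was the steadiest, at 0.0820, and Psme2b and Psmb2 the most variable, both at 0.324. Highly expressed genes vary less in general, and the members' median mean log2 CPM was 5.91 against 3.91 over all genes. Compared with genes of the same abundance, in bins of 1 log2 unit, 38 of 45 members lay under their bin's median and 24 under its lower quartile. Without recurrent DMAG replicate 1 the medians were 0.126 and 0.321, and 39 members lay under their bin's median, with 25 under the lower quartile.

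**Figure D3:**
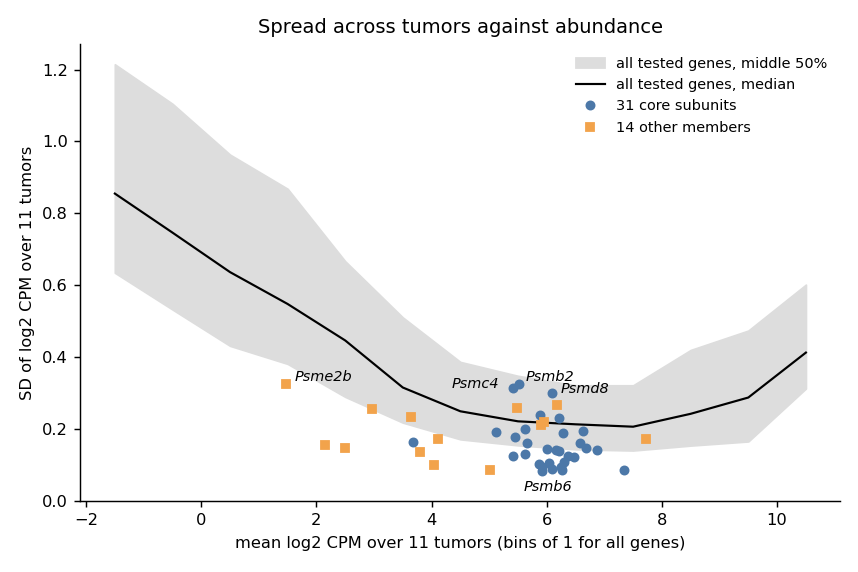
SD of log2 CPM over 11 tumors (y axis) against mean log2 CPM (x axis); the line and gray band are the median and middle 50% of all tested genes in bins of 1 log2 unit, circles the 31 core subunits and squares the 14 other members tested. Most members lie below the line, with Psmb2, Psmc4 and Psmd8 among those above it.

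The balance among core subunits was least even in 1 tumor, where all genes also departed most from the other tumors. The SD of the 31 log2 ratios to the median of the other tumors was 0.0601 to 0.204 in 10 tumors and 0.307 in recurrent DMAG replicate 1, where all genes had an SD of 1.101, against 0.544 to 1.00 in the others. That library was the highest tumor for 16 of 31 core subunits and 19 of 45 members, beside 24.6% of all genes. Its ratio to the median of the other tumors was 1.81 for Psmc4, a ring ATPase, 1.77 for Psmd8, a lid subunit, 1.59 for the ubiquitin receptor Psmd4, 1.55 for the deubiquitinase Psmd14 and 1.43 for Psma7. It was 0.825 for Psmd3, another lid subunit, and 0.700 for the assembly chaperone Psmd10, so genes of the same particle stood on both sides of the median there.

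Psmc4 (chr7:28041707-28050101, minus strand) stood at 42.0, 42.0 and 34.9 CPM in primary untreated, 44.3, 31.7 and 42.2 CPM in primary STV, 76.2, 40.1 and 42.3 CPM in recurrent DMAG, and 40.7 and 44.9 CPM in recurrent DMAG+STV tumors. Its glands were at 36.3 and 58.4 CPM, and the other 10 tumors lay between 31.7 and 44.9 CPM. Primary untreated replicate 2 stood at the other end, the lowest tumor for 19 of 45 members beside 13.9% of all genes. Psmb2, a beta subunit without a catalytic site (chr4:126677630-126709714, plus strand), was at 0.501 of the median of the other tumors in it.

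**Figure D4:**
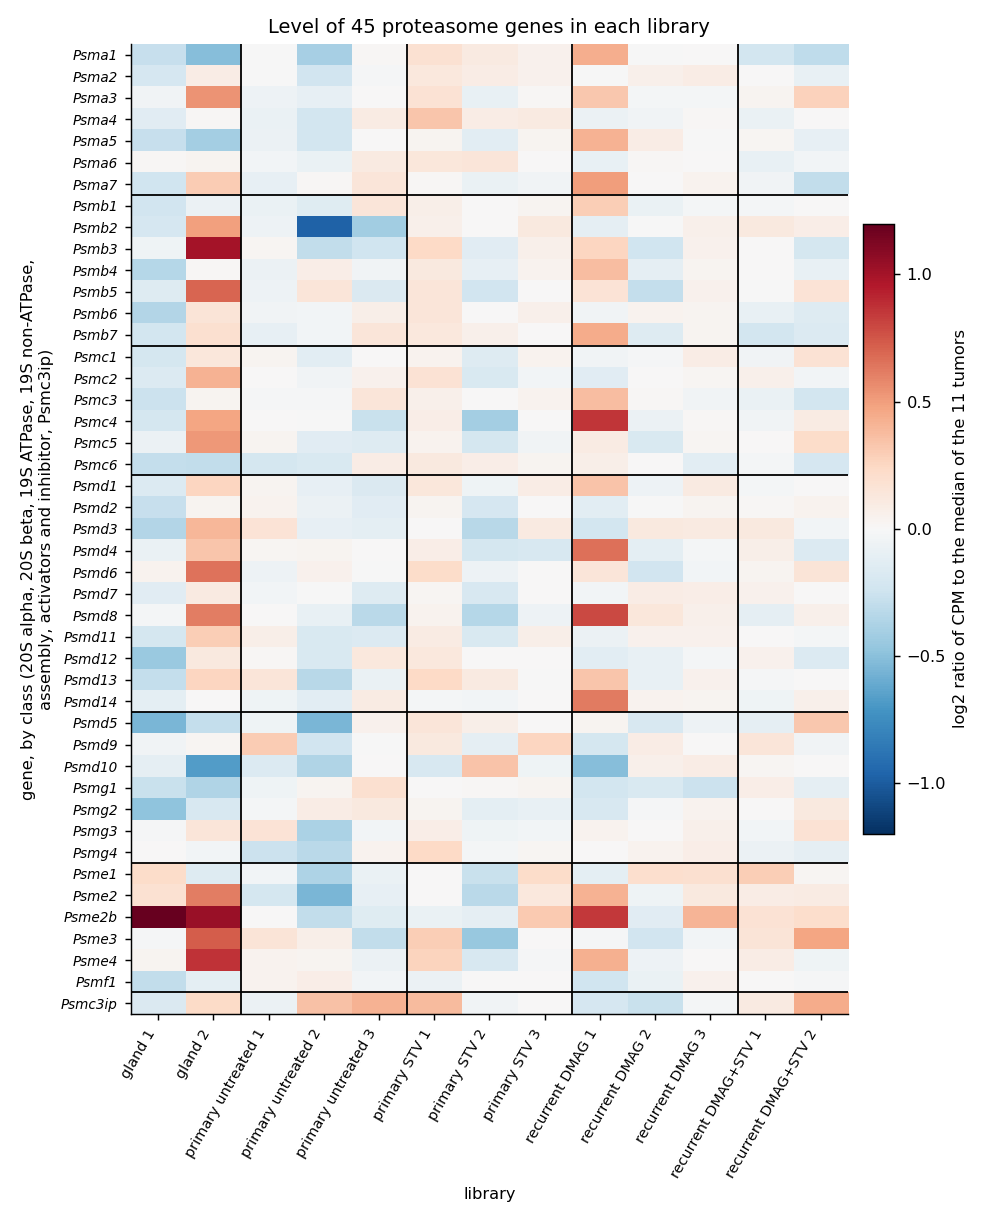
Log2 ratio of CPM to the median of the 11 tumors (color, saturating at 1.2 in either direction) for 45 members (lines, by class) in 13 libraries (columns, by group). Most tumor cells are pale, recurrent DMAG 1 holds red cells in every core class, and the darkest blue tumor cell is Psmb2 in primary untreated 2.

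Against the glands, the proteasome genes were centered near no difference on the TMM scale, with gland 1 below and gland 2 above most tumors. As a share of counts gland 2 was instead the lowest library, at 0.160%, or 0.224% without milk, muscle and adipocyte genes. The median log2 fold change of all tumors over glands was -0.00 for 45 members and -0.02 for 17135 tested genes, with 22 members higher and 23 lower. At an adjusted p under 0.05 in edgeR's quasi-likelihood test, 1 member was called, the activator gene Psme2b, where 10.4% of all genes were called (8.81% in the lower direction), and an unadjusted p under 0.05 was reached by 10 members, or 22.2%, against 29.6% of all genes. The 95% interval of the fold change lay within 2-fold for 43 of 45 members, compared with 42.7% of all genes.

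Psme2b was lower in the tumors. Psme2 encodes PA28 beta, a subunit of an interferon-inducible activator that caps the 20S particle, and Psme2b is an intronless copy of it with 1 exon (ENSMUSG00000078153.3, chr11:48945354-48946190, minus strand). The Psme2b level was 7.15 and 5.17 CPM in the glands, 2.53, 2.06 and 2.29 CPM in primary untreated, 2.39, 2.35 and 3.14 CPM in primary STV, 4.56, 2.30 and 3.36 CPM in recurrent DMAG, and 2.85 and 2.94 CPM in recurrent DMAG+STV tumors. All 11 tumors lay below both glands, which, with 3 members above both, made 4 of 45 without overlap beside 11.5% of all genes. The log2 fold change was -1.15 (SE 0.26, edgeR adjusted p = 0.0217), or 0.450-fold with a 95% interval of 0.302 to 0.671.

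Psme2 itself (chr14:55587441-55591113, minus strand, 11 exons) had levels of 52.1 and 70.4 CPM in the glands, 39.8, 31.5 and 43.1 CPM in primary untreated, 46.0, 36.8 and 50.3 CPM in primary STV, 61.5, 44.4 and 49.9 CPM in recurrent DMAG, and 48.8 and 49.3 CPM in recurrent DMAG+STV tumors. Its log2 fold change was -0.43 (edgeR adjusted p = 0.126). The coding sequences of both genes are 717 bases long and differ at 5 of them, an identity of 99.3%. The stretch with most of the differences, coding bases 454 to 543, is shown to make plain how little separates their reads, with the 3 differing bases in capitals.
Psme2: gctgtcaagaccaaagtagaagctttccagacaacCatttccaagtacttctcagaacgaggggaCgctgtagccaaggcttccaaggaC
Psme2b: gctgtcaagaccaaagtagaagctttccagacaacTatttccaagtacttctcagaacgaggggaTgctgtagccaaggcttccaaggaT
The Psme2b count was 13.7% of that of Psme2 in gland 1, 7.35% in gland 2 and 5.18% to 7.42% in the tumors.

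Other values moved with the Psme2b call. The gene 9930111J21Rik1 (chr11:48946150-48979398, minus strand) overlaps the first 41 bases of Psme2b on the same strand. Its level was 9.86 and 3.07 CPM in the glands, against 1.26 to 3.47 CPM in the tumors, a log2 fold change of -1.90 (edgeR adjusted p = 0.00969). The leukocyte gene Ptprc was at 215 and 33.8 CPM in the glands and 18.0 to 58.8 CPM in the tumors, and all 5 pan-leukocyte markers, each with counts in every library, summed to 813 and 353 CPM against 251 to 800 CPM. Recurrent DMAG replicate 1 was the highest tumor for Psme2b, Psme2, 9930111J21Rik1 and Ptprc, but the summed pan-leukocyte markers were highest in recurrent DMAG+STV replicate 1, at 800 CPM against 628 CPM. The part of the neighbor, of the shared sequence and of leukocytes in the Psme2b difference was not tested. The call was lost with either gland left out, where a single gland remained and only the effect is given. The log2 fold change was -0.86 without gland 1 and -1.28 without gland 2. The call was also lost with library totals alone (-0.85, adjusted p = 0.246 in edgeR), where 489 of 17135 genes were called.

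By class, 5 of 6 activator and inhibitor genes were lower in tumors than in glands, with a median of -0.39, and 1 passed the test. Of 7 assembly factors 5 were higher, with a median of 0.28, and none passed in edgeR. DESeq2 called Psmg2 (0.31, adjusted p = 0.0489), beside 3242 of 17135 genes, 1079 of them higher. The 4 core classes had medians between -0.05 and 0.06, and no core subunit passed the test. Psmb3, a structural beta subunit, had a log2 fold change of -0.61 and Psma5 one of 0.35, neither past the threshold (edgeR adjusted p = 0.0999 and 0.108). Both share over 50% of their 50-base words with other genes, as do Psme2b and Psme2.

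Primary untreated tumors alone gave a like picture against the glands, with which this comparison shares its control libraries. The median was -0.03 for members and -0.02 for all genes, 19 members were higher and 26 lower, and none was called by edgeR, beside 2.11% of all genes (1.83% in the lower direction). An unadjusted p under 0.05 was reached by 6 members, against 24.5% of all genes, and DESeq2 called 3 members beside 2352 of 17135 genes. Psme2b was lowest, with a log2 fold change of -1.43 (SE 0.33, edgeR adjusted p = 0.0552). DESeq2 called it, Psme2 and the assembly chaperone Psmg1, the last in the higher direction.

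**Figure D5:**
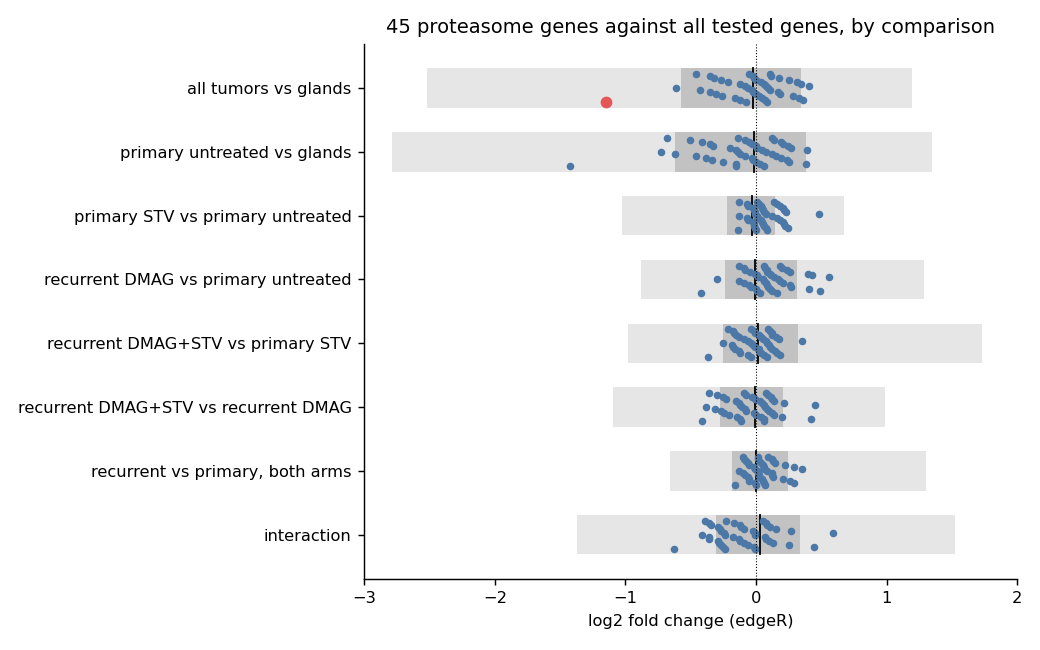
Log2 fold changes (x axis) of 45 members (points) in 8 comparisons (lines); light and dark bars span the middle 90% and 50% of all tested genes, short lines their median, and red marks a member called. The only red point is Psme2b in all tumors against glands at -1.15, and every point lies inside its light bar.

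Between tumor groups no proteasome gene was called. In each of the 6 comparisons edgeR called 0 of 45 members and 0.0% of all genes, and DESeq2 also called 0 members, although it called 17 to 410 of 16870 genes. Members with an unadjusted p under 0.05 numbered 0 to 3 per comparison. Fold changes of members were small, and 38 to 45 of 45 members had a 95% interval within 2-fold, against 37.2% to 63.2% of all genes. These shares were not matched for abundance, which was higher for the members. All members lay in the middle 90% of all genes in every comparison.

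Stavudine in primary tumors was compared first. The median log2 fold change was 0.04 for members and -0.03 for all genes, with 29 members higher and 16 lower. Only Psmb2 reached an unadjusted p under 0.05, against 3.76% of all genes. It stood at 47.0, 25.1 and 36.7 CPM in primary untreated, 51.2, 49.0 and 53.1 CPM in primary STV, 45.4, 49.0 and 51.1 CPM in recurrent DMAG, and 53.2 and 51.7 CPM in recurrent DMAG+STV tumors, with 42.7 and 68.8 CPM in the glands. The low values of untreated replicates 2 and 3 set it apart, and its log2 fold change of 0.48 (95% interval 0.06 to 0.90) had an edgeR adjusted p of 1.00. It was 0.30 without untreated replicate 2 and 0.71 without untreated replicate 1. The groups did not overlap for 3 of 45 members, beside 10.8% of all genes.

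Recurrent DMAG against primary untreated tumors gave a median of 0.09 for members and -0.01 for all genes, with 34 members higher and 11 lower. Without recurrent DMAG replicate 1 the members' median was 0.04. Unadjusted p under 0.05 was reached by 3 members, against 9.69% of all genes: Psme2 at 0.43, Psmd8 at 0.49 and Psmg1 at -0.30, each with an edgeR adjusted p of 0.509. The levels of Psme2 are given above, and it was at 0.31 without recurrent DMAG replicate 1. Ptprc had a log2 fold change of 0.81 in the same comparison (unadjusted p = 0.0404, adjusted p = 0.509 in edgeR), and the pan-leukocyte sums were 326, 524 and 381 CPM in untreated and 628, 434 and 332 CPM in recurrent DMAG tumors; their part in the Psme2 and Psmb8 values was not tested. Psmd8 (chr7:29174188-29180701, minus strand) stood at 67.4, 63.3 and 53.7 CPM in untreated and 117, 74.3 and 70.5 CPM in recurrent DMAG tumors, the highest again in replicate 1. Groups did not overlap for these 3 members, beside 15.1% of all genes. The catalytic subunits had log2 fold changes of 0.00 for Psmb5, -0.01 for Psmb6 and 0.10 for Psmb7, and Psmb7 was at -0.06 without recurrent DMAG replicate 1 and 0.26 without replicate 2.

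Recurrent DMAG+STV against primary STV tumors gave a median of 0.02 for members and 0.01 for all genes, with 23 higher and 22 lower. No member reached an unadjusted p under 0.05, against 10.1% of all genes. Psma1, a subunit of the outer ring of the barrel (chr7:114264606-114276118, minus strand), had the smallest p. It stood at 74.2, 56.7 and 75.3 CPM in primary untreated, 84.3, 79.96 and 76.9 CPM in primary STV, 100, 74.1 and 74.5 CPM in recurrent DMAG, and 63.9 and 60.2 CPM in recurrent DMAG+STV tumors, with 61.6 and 52.3 CPM in the glands. Both recurrent DMAG+STV tumors lay below all primary STV and recurrent DMAG tumors. Both also had lower proliferation marker sums than every other tumor, and the part of composition in the Psma1 values was not tested. The log2 fold change was -0.37 (edgeR adjusted p = 0.501). The groups did not overlap for 9 members, all lower in the recurrent tumors, beside 35.3% of all genes in either direction.

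Recurrent tumors with stavudine were set against those without it. The median was -0.02 for members and -0.00 for all genes, with 20 higher and 25 lower. Psma1 alone reached an unadjusted p under 0.05, against 7.84% of all genes, with a log2 fold change of -0.41 (edgeR adjusted p = 0.609). Groups did not overlap for 4 members that were higher and 7 that were lower with stavudine, beside 21.5% of all genes. Psmb7 had a log2 fold change of -0.32 (95% interval -0.70 to 0.07) and Psmb6 one of -0.12 (95% interval -0.34 to 0.10). Without recurrent DMAG replicate 1, Psmb7 was at -0.13 and Psma1 at -0.26.

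Over both arms, recurrent against primary tumors gave a median of 0.02 for members and 0.00 for all genes, with 29 higher and 16 lower. Psme2 alone reached an unadjusted p under 0.05, against 13.6% of all genes, at 0.29 (edgeR adjusted p = 0.361), where Ptprc was at 0.64 (edgeR adjusted p = 0.336), and no member's groups were free of overlap, beside 1.34% of all genes. The interaction, the effect of recurrence under stavudine minus that without it, had a median of -0.12 for members and 0.03 for all genes. It was below 0 for 32 of 45 members, including all 7 alpha subunits, and without recurrent DMAG replicate 1 the median was -0.06. The share of all genes below 0 was not counted. Members were measured in the same libraries, so their directions are not independent. Psma1 alone reached an unadjusted p under 0.05, against 7.84% of all genes, with a value of -0.63 (95% interval -1.14 to -0.12, edgeR adjusted p = 0.578).

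Genes that act with the proteasome were read beside it. No gene of 16 proteasome partners, 14 NRF1 pathway genes, 6 ubiquitin genes, 12 p97 and ERAD genes and 3 immunoproteasome genes was called by edgeR between tumor groups, and against the glands 1 was: Derl1, which helps to move misfolded proteins out of the endoplasmic reticulum, at -0.60 in all tumors (edgeR adjusted p = 0.0463), beside 10.4% of all genes called in that comparison. The maturation factor Pomp stood between 56.5 and 74.0 CPM in tumors and at 51.2 and 70.5 CPM in the glands, and the ubiquitin receptor Adrm1 between 40.0 and 66.4 CPM and at 50.6 and 79.8 CPM. Nfe2l1 stood at 297, 265 and 238 CPM in primary untreated, 281, 269 and 317 CPM in primary STV, 298, 384 and 308 CPM in recurrent DMAG, and 279 and 247 CPM in recurrent DMAG+STV tumors, with 258 and 247 CPM in the glands. All recurrent DMAG tumors were above the primary untreated ones (log2 fold change 0.29, edgeR adjusted p = 0.510), but the closest values were 298 and 297 CPM. In this comparison the groups did not overlap for 15.1% of all genes.

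Ddi2 ranged from 50.0 to 144 CPM over tumors, a ratio of highest to lowest of 2.89, against at most 2.41 for a core subunit, Psmc4. Its log2 fold change between recurrent DMAG+STV and primary STV tumors was -1.01 (edgeR adjusted p = 0.461). Ngly1 ranged from 21.02 to 44.3 CPM and was lowest in recurrent DMAG replicate 1.

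The inducible catalytic subunits Psmb8, Psmb9 and Psmb10 replace Psmb5, Psmb6 and Psmb7 in the immunoproteasome, and they spanned a wider range over tumors than these. Psmb8 stood at 63.1, 21.3 and 74.1 CPM in primary untreated, 70.4, 43.5 and 104 CPM in primary STV, 103, 109 and 118 CPM in recurrent DMAG, and 80.6 and 29.2 CPM in recurrent DMAG+STV tumors, with 76.9 and 76.4 CPM in the glands. The highest tumor was 5.51 times the lowest for Psmb8 and 6.92 times for Psmb9, against 1.37 for Psmb5 and 1.23 for Psmb6, and the difference was smaller for Psmb10, at 1.998 times against 1.59 for Psmb7. All recurrent DMAG tumors were above the untreated ones in Psmb8, beside 15.1% of all genes without overlap in either direction. The log2 fold change of Psmb8 was 1.04 (SE 0.50, edgeR adjusted p = 0.512), which did not pass the test.

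Core subunits moved together only loosely across tumors. Over 11 tumors, which differ in group, depth and composition, the median Pearson correlation of log2 CPM over 465 core pairs was 0.26, against -0.00 for all genes, and over 10 tumors without recurrent DMAG replicate 1 it was 0.28. The highest pair was Psmc4 with Psmd8 at 0.96 and the lowest Psmb7 with Psmd3 at -0.61, given as a description. Both changed without recurrent DMAG replicate 1, where the highest pair was Psmc4 with Psmd2 at 0.92 and the lowest Psmc3 with Psmc5 at -0.67.

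Promoter sequences from RefSeq (GRCm38.p6, 250 bases before to 50 after the start) were matched for 39 members. Letters were searched on both strands. The ETS-type core CCGGAA was found in 21 of 39 members, or 53.8%, against 16.7% of 27025 genes and 26.5% of 12553 tested genes. TGACNNNGC, a loose form of the antioxidant response element, was found in 6 members, or 15.4%, against 13.99% of all genes and 16.5% of tested genes, and the CCAAT box in 14 members, or 35.9%, against 41.1% and 41.7%. TGACTCAGC, which is among the forms that the loose letters cover, was in 0 members and 0.503% of all genes. A match is a description and not a binding site. The windows below show TGACNNNGC near the start of catalytic subunits Psmb5 (chr14:54618023-54618102, minus strand) and Psmb6 (chr11:70525277-70525356, plus strand), and the ETS-type core in Psmc5 (chr11:106256074-106256153, plus strand) and, as its reverse complement, in Psmd2 (chr16:20651572-20651651, plus strand), with the matched letters in capitals.
Psmb5: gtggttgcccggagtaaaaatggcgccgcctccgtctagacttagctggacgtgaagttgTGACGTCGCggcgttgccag
Psmb6: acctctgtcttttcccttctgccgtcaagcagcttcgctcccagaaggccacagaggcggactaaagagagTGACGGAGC
Psmc5: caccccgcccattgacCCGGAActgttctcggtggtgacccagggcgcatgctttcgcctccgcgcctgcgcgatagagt
Psmd2: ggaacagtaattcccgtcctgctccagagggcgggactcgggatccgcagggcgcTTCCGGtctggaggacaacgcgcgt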

How the data were processed

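Total RNA depleted of ribosomal RNA was sequenced from 2 glands and 11 tumors. The authors deposited raw read counts per gene symbol, made with bcl2fastq 2.20, STAR and featureCounts (Subread 1.6.2) on mm10/GRCm38 per the submitters' processing notes. The STAR version and the strand and multi-mapping settings were not given in the sources used here. Counts were tested in edgeR 4.0.16 (limma 3.58.1, R 4.3.3) with TMM factors, filterByExpr, glmQLFit and glmQLFTest over all genes, with Benjamini-Hochberg adjustment and a threshold of 0.05. The fit against glands held all 13 libraries, and comparisons between tumors held 11. DESeq2 1.42.0, the study's tool, was an alternative, beside other scalings, no filter, fewer groups, a replicate block and each library left out. Scripts were tested on simulated data. No library was a duplicate of another in its group (chi-square over degrees of freedom 45.3 to 1722 over 11 replicate pairs), and pairs between groups were not checked in this way. Values were given in full for Psmb5, Psmb6 and Psmb7, and for called members or, with none, the member with the smallest p in each comparison; Psmc4, Psmd8 and the genes beside the Psme2b call were added after their values were seen. The members and gene lists were chosen with earlier results of these data known. The symbols Sem1, Ecpas, Paaf1 and Ufd1 of those lists were not matched, but Shfm1, another symbol of Sem1, was among the partners tested.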

Additional observations from a re-analysis of the deposited data

How the results depend on the processing

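The comparisons between tumors kept 0 members called under all 106 alternative counts, with a lowest adjusted p of 0.202. Most of the edgeR alternatives called no gene at all, so the absence of called members there says little about the members. DESeq2 called 17 to 410 of 16870 genes in these comparisons, and no member. Of 580 values of named members under alternatives, 573 kept their side of the threshold, 4 lost and 3 gained it. Among those 573 were 55 uncalled values, at most 0.248 in size, that changed sign. All tumors against glands, with 1 member called, gave 2 by DESeq2 (Psme2b and Psmg2), 0 with library totals alone, and 0 to 5 with a library left out, the lowest without gland 2 and the highest without gland 1. Primary untreated tumors against glands, with 0 called, gave 3 by DESeq2 and 0 to 6 with a library left out, the highest without gland 1, and 1, Psme2b, without recurrent DMAG replicate 1; over all genes, 361 calls there became 2352, 3381 and 1360 in these 3 settings. The members' median against glands became 0.44 (all tumors) and 0.40 (untreated) with library totals alone, where the median of all genes was 0.37 and 0.36, and ranged from -0.10 to 0.26 and from -0.13 to 0.22 with a library left out. Over all genes, calls in all tumors against glands went from 1785 to 3242 by DESeq2, 489 with library totals, 371 with the block, 4255 without gland 1, 535 without gland 2 and 3100 without recurrent DMAG replicate 1. With the principal transcript length the median core level was 44.6 CPM per kb, an alternative chosen after seeing the data, as was leaving recurrent DMAG replicate 1 out of the spread and correlations. The cause of these changes was not tested. Replicate numbers did not pair the libraries (23 same-number pairs, r from -0.29 to 0.22, 2 of 13 libraries closest to their own number), and the replicate block left 0 members called against glands (Psme2b -1.17, adjusted p = 0.0584). With 2 glands that differ in milk genes, small differences from glands could not be resolved.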
